A study of Saccharomyces cerevisiae with 8 samples.

Results

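The transcriptome of *srb2∆*, a yeast strain without a subunit of the Mediator head, was compared directly with that of *mig1∆*, a strain without a repressor of glucose-repressed genes. The comparison rested on 4 of the 8 libraries of the series, 2 per strain, and covered every gene with at least 1 RPKM (reads per kilobase of gene, scaled to the mapped reads of the library) in at least 2 libraries, which were 5628 of the 6103 genes listed. Both strains were made from ScY01a, an industrial *Saccharomyces cerevisiae* haploid of mating type *MATa*, by putting the KanMX marker in place of the whole open reading frame, so that *srb2∆* kept *MIG1* and *mig1∆* kept *SRB2*. All cultures were in YP medium with glucose at 200 g/L, were shaken at 200 rpm and 30°C, and were harvested in early log phase after 10 h. The paper describes its RNA sequencing cultures at a higher temperature as micro-aerobic, with faster shaking than the 200 rpm of the sample labels. It places those at 30°C in a different batch of experiments and does not restate their aeration. The wild type ScY01a and *sin3∆*, with 2 libraries each and the same culture conditions, shared in the estimate of the spread and are otherwise given as reference levels. Genes of sugar transport, carbon use and respiration were followed on 25 lists, which held 413 genes of the table (carbon genes hereafter), 398 of them with enough signal to be tested.

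Mediator carries signals from DNA-bound regulators to RNA polymerase II, and its head module, to which Srb2p (Med20) belongs, contacts the polymerase. Mig1p is a zinc finger protein that binds GC-rich sites upstream of genes for the use of other sugars and of nonfermentable carbon, and it brings in the corepressor Cyc8p-Tup1p while glucose is plentiful. When glucose runs low the kinase Snf1p phosphorylates Mig1p, which leaves the nucleus, and its targets are transcribed. *S. cerevisiae* ferments glucose even with oxygen present, and many genes for respiration, gluconeogenesis and storage carbohydrates are low during that growth.

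The deleted genes checked the labels. *SRB2* (YHR041C, chromosome VIII of R64 from 189131 to 189864) was listed at 0 in both *srb2∆* libraries and at 75.3 and 83.9 RPKM in *mig1∆*. *MIG1* (YGL035C, chromosome VII from 431548 to 433062) was listed at 0 in both *mig1∆* libraries and stood at 63.1 and 65.7 RPKM in *srb2∆*, above the 29.0 and 25.5 RPKM of the wild type. Of the markers of an a cell, the receptor gene *STE2* lay between 334 and 417 RPKM in the 4 libraries and the exporter gene *STE6* between 48.7 and 53.5 RPKM, whereas the pheromone genes *MFA1* and *MFA2* were listed at 0 in all libraries. The alpha-cell receptor gene *STE3* was at most 0.352 RPKM, while *MF(ALPHA)2* and *SAG1* lay between 11.2 and 21.8 RPKM. Several very short genes are likewise listed at 0 in some libraries.

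The libraries of the 2 strains differed in composition as well. In *srb2∆*, 42.8% and 42.0% of all RPKM fell on cytosolic ribosomal protein genes, against 24.1% and 25.9% in *mig1∆*, and their part in the differences below was not tested. On the first principal component, which held 64.2% of the variance, *srb2∆* lay with *sin3∆* and *mig1∆* with the wild type. Read counts were not used here, so the depth behind each value is unknown. The p-values rest on a spread pooled over the pairs of libraries of the 4 strains, which may be technical. In RNA from a whole culture, a lower level in every cell and fewer cells expressing a gene cannot be told apart.

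Most carbon genes that differed between the strains were lower in *srb2∆*. A gene was called when its difference in log2(RPKM + 1) between *srb2∆* and *mig1∆* was at least 2-fold with an adjusted p of at most 0.05 from limma. Of the 398 carbon genes tested, 165 were called lower in *srb2∆* and 11 higher, against 828 lower (14.7%) and 620 higher (11.0%) of all 5628 genes, or 25.7% called in either direction. The median difference of the carbon genes was -0.85 on the log2 scale, whereas that of all genes tested was -0.02. Among the 5230 other genes, 663 were lower and 609 higher. The split of all calls depended on scaling. With every library set to the same sum, 397 genes were higher and 1093 lower, the median of all genes moved from -0.02 to -0.21, and the carbon genes gave 7 higher and 209 lower.

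**Figure D1:**
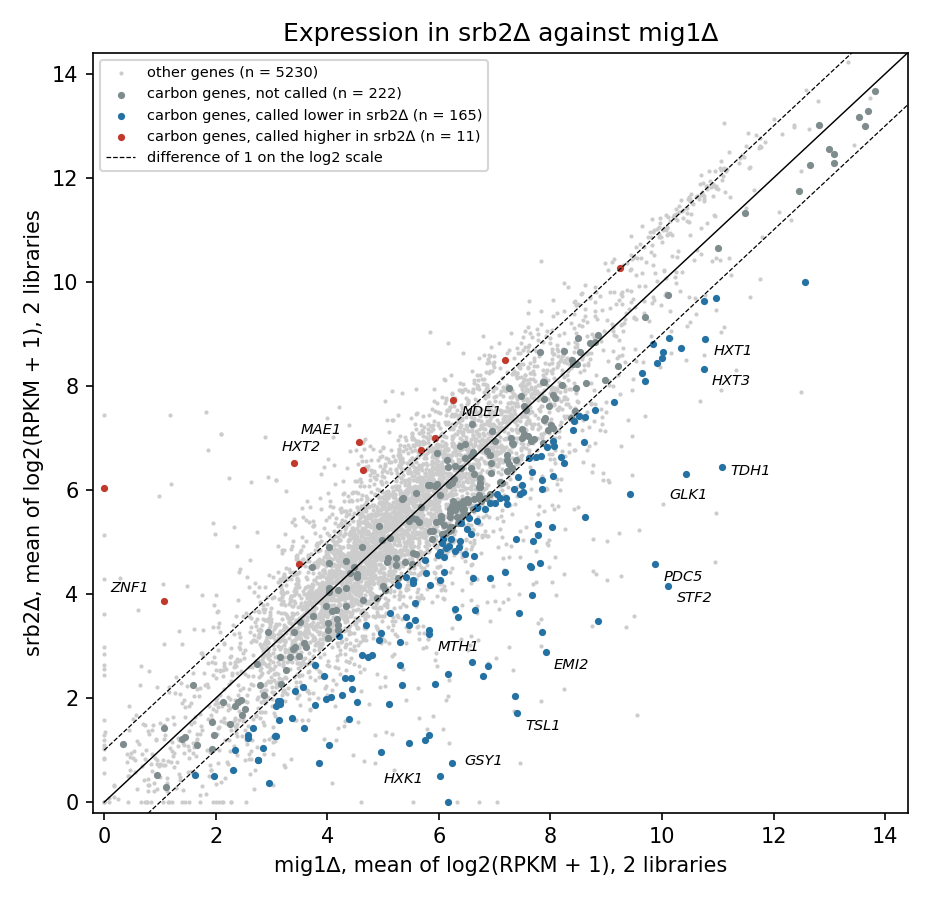
Mean of log2(RPKM + 1) over the 2 libraries of *srb2∆* (vertical axis) against that of *mig1∆* (horizontal axis), 1 point per gene, with the 398 carbon genes in colour, the line of equal level and dashed lines at a difference of 1. The 165 carbon genes called lower lie below the lower dashed line down to the lowest values in *srb2∆*, and the 11 called higher lie above the upper one.

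The wild type served as a reference level for these calls. For each called gene the wild-type mean of log2(RPKM + 1) was placed on either side of the midpoint between the strains, as a description with no test. It lay nearer *mig1∆* for 1388 of the 1448 called genes (95.9%) and nearer *srb2∆* for 60. Among carbon genes it lay nearer *mig1∆* for 145 of the 165 lower in *srb2∆*, and for the other 20 the wild type was on the side of *srb2∆*. These 20 are *HXK1*, *REG2*, *MTH1*, *HXT1*, *HXT3*, *HXT4*, *SNF3*, *GAL4*, *CAT8*, *SUC2*, *MAL12*, *MAL31*, *MIG2*, *HAP4*, *GUT1*, *MPC3*, *FAA2*, *CYC7*, *KGD4* and the very short *COX26*. This rule divided the genes lower in *srb2∆* into a larger set with the wild type on the side of *mig1∆* and a smaller set with the wild type on the side of *srb2∆*. It places every gene on 1 side, however near the wild type lies to the midpoint, so the division itself is not a finding.

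The smaller set included many of the genes described in the literature as repressed by Mig1p. Of 16 tested genes on that list, 11 were called lower in *srb2∆* and 1 higher, with a median of -1.83, beside 14.7% and 11.0% over all genes. *HXK1*, which encodes hexokinase 1 (YFR053C), stood at 0.482 and 0.344 RPKM in *srb2∆*, at 67.0 and 61.3 in *mig1∆* and at 2.62 and 1.99 in the wild type. The *mig1∆* libraries were far above the other strains, and the difference between *srb2∆* and *mig1∆* was -5.53 ± 0.18 on the log2 scale (SE, adjusted p = 4.5e-07 from limma). *REG2*, a regulatory subunit of the Glc7p phosphatase that acts in glucose repression, stood at 1.34 and 0.625 RPKM in *srb2∆* against 31.9 and 28.4 in *mig1∆*, with 2.10 and 3.71 in the wild type. *MAL31*, a maltose permease gene, stood at 10.3 and 11.2 RPKM in *srb2∆*, 46.4 and 36.8 in *mig1∆* and 6.97 and 6.02 in the wild type, so that *srb2∆* was slightly above the wild type. *SUC2*, which encodes invertase and is the classical Mig1p target, stood at 33.4 and 31.0 RPKM in *srb2∆* and at 73.9 and 72.2 in *mig1∆*, a difference of -1.16 ± 0.08 (SE, adjusted p = 1.3e-05 from limma). Its wild-type libraries, at 34.4 and 31.1 RPKM, overlapped those of *srb2∆*. *EMI2*, a paralog of the glucokinase gene, behaved otherwise: it stood at 6.07 and 6.75 RPKM in *srb2∆*, 118 and 111 in the wild type and 248 and 233 in *mig1∆*, and thus lay apart in all 3 strains. Of the genes on the list that were not called, *FBP1* (fructose-1,6-bisphosphatase) stood at 3.39 and 2.99 RPKM in *srb2∆* and 6.28 and 6.21 in *mig1∆*, and *GAL1* (galactokinase) had -0.47 ± 0.22 on the log2 scale (SE, adjusted p = 0.0936 from limma). *HXT13* and *MAL32* were below the filter. The call of *CAT8*, an activator gene at 2.32 RPKM at most in the 4 libraries, was lost when *srb2∆* replicate 3 or *mig1∆* replicate 1 was left out, under quantile normalization, with a pseudocount of 5 and in the test against 1.5-fold. That of *GAL3* was lost with a pseudocount of 5.

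**Figure D2:**
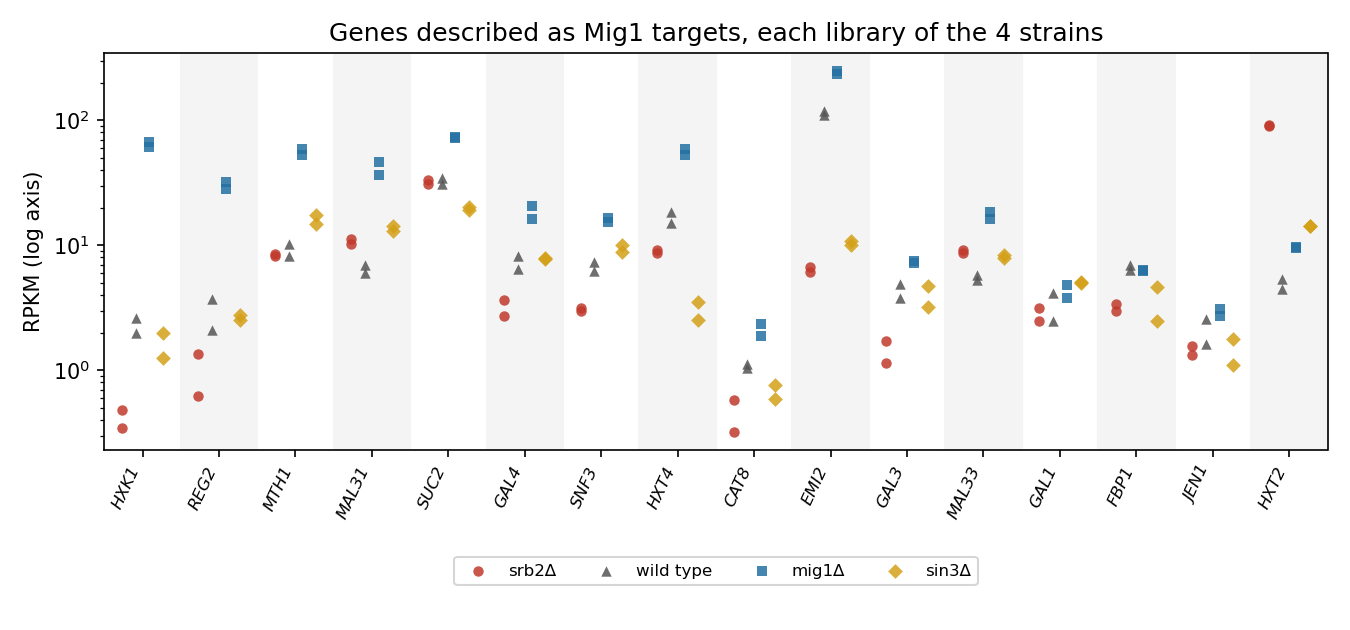
RPKM (log axis) of the 16 tested genes described as Mig1p targets, 2 points per strain for *srb2∆*, the wild type, *mig1∆* and *sin3∆*. The *mig1∆* libraries are the highest for most genes, as for *HXK1* at 67.0 and 61.3 RPKM, while *HXT2* is highest in *srb2∆*.

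The reference sequence before some of these genes shows the letters that Mig1p is known to bind. Windows from 500 bases before to 50 bases after the start codon were read from R64 for 5576 of the tested genes and searched on both strands for the Mig1p core, which was spelled GCGGGG or GTGGGG or CCGGGG or CTGGGG. The stretches printed here hold, for each gene, the match nearest the start codon among those that end at least 150 bases before it, written 5′ to 3′ on the strand of the gene with every core match in capitals, and these 6 called genes are shown as examples of the matches, chosen after their values were seen. They lie at chrVI:255326-255375 (minus strand) for *HXK1*, chrII:338496-338548 (minus) for *REG2*, chrIV:1016104-1016153 (minus) for *MTH1*, chrII:804728-804777 (minus) for *MAL31*, chrIX:36958-37007 (plus) for *SUC2* and chrIV:1476756-1476805 (minus) for *EMI2*.
HXK1: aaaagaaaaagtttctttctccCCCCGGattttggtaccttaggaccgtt
REG2: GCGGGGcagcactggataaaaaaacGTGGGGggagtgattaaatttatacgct
MTH1: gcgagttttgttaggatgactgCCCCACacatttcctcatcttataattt
MAL31: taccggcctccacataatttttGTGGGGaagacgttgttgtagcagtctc
SUC2: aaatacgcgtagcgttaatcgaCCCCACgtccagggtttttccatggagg
EMI2: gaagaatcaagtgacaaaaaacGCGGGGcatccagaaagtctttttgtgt
These are letters of the reference strain S288C and not of ScY01a, and a match is not a binding site.

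The core was unevenly spread over the called genes. It was found in 24.2% of all windows, in 36.4% of those of genes lower in *srb2∆* (301 of 827), in 20.7% of those of genes higher in *srb2∆* (125 of 605), in 41.2% of those of carbon genes (164 of 398) and in 15 of 16 on the Mig1p list. Among the 50 genes called lower for which the wild type was nearer *srb2∆*, 40 windows held it (80.0%), and without the genes of the Mig1p list 31 of 41 did (75.6%). Among the 777 for which the wild type was nearer *mig1∆*, 261 did (33.6%). AGGGG, the core of the stress response element of Msn2p and Msn4p, was in 55.5% of the windows of genes lower in *srb2∆*, 27.6% of those higher and 36.7% of all. CCAAT, the letters of the Hap complex that activates respiratory genes, was in 66.0%, 65.1% and 67.4%. None of the Mig1p spellings contains AGGGG, so a match of one is not a match of the other. The division by wild-type level was made after the values had been seen, and no test was made on any of these shares.

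Hexose transporter genes were mostly lower in *srb2∆*, with 1 exception. Of 11 tested, 7 were called lower and 1 higher, beside 14.7% and 11.0% of all genes. The median of the 11 was -2.25, and all 8 calls held under every alternative tried. Summed over the family, hexose transporters reached 909 and 953 RPKM in *srb2∆* against 3951 and 3670 in *mig1∆* and 1744 and 1569 in the wild type. Hxt1p and Hxt3p are the low-affinity carriers of cells in ample glucose. *HXT1* (YHR094C, chromosome VIII from 290913 to 292625) stood at 459.8 and 501 RPKM in *srb2∆* and 1814 and 1678 in *mig1∆*, a difference of -1.86 ± 0.10 (SE, adjusted p = 3.3e-06 from limma). *HXT3* (YDR345C) stood at 321 and 322 RPKM against 1757 and 1676, with -2.41 ± 0.08 (SE, adjusted p = 4.3e-07 from limma). The wild type lay between the strains in both genes, at 866 and 774 RPKM for *HXT1* and 658 and 596 for *HXT3*. *HXT2*, which encodes a carrier that serves at low glucose and is itself described as repressed by Mig1p, went the other way. It stood at 91.0 and 89.4 RPKM in *srb2∆* and at 9.58 and 9.68 in *mig1∆*, a difference of 3.10 ± 0.09 (SE, adjusted p = 3.4e-07 from limma), while the wild type was at 5.36 and 4.49 RPKM and *sin3∆* at 14.3 and 14.2.

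The other transporters differed in their level in the wild type. *HXT5*, which is expressed in slow growth, stood at 10.2 and 12.8 RPKM in *srb2∆*, 194 and 153 in *mig1∆* and 84.1 and 79.8 in the wild type. *HXT9* and *HXT11*, whose products are better known for drug sensitivity than for sugar uptake, stood at 2.93 and 4.26 RPKM and at 5.10 and 5.36 in *srb2∆*. In *mig1∆* they were at 22.7 and 18.7 and at 39.9 and 37.1 RPKM, close to their wild-type levels. The coding sequences of *HXT6* and *HXT7* were 99.8% identical and those of *HXT9* and *HXT11* 97.2%, so their reads cannot be divided with certainty: *HXT6* was called at -3.08 ± 0.22, and *HXT7* was not, at -0.47 ± 0.41 (SE, adjusted p = 1.4e-05 and 0.335 from limma). *HXT8* and *HXT15* were at 3.06 RPKM or less in the 4 libraries, and *HXT10*, *HXT13*, *HXT14*, *HXT16* and *HXT17* were below the filter.

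**Figure D3:**
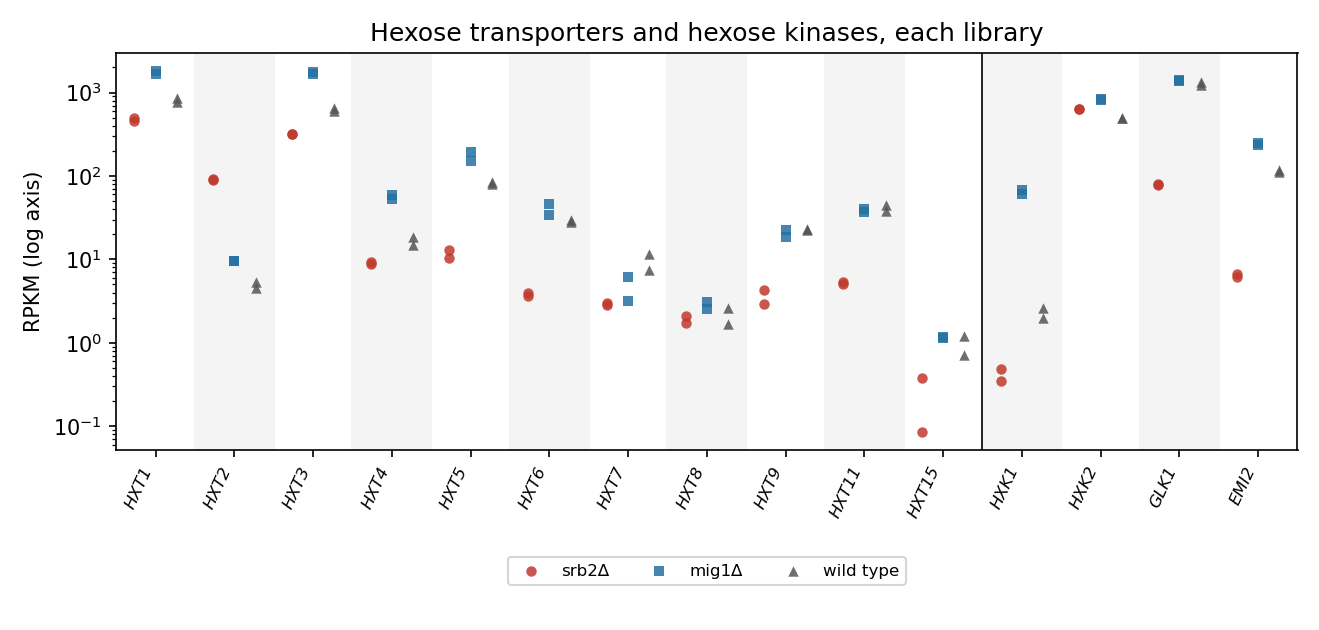
RPKM (log axis) of the 11 tested hexose transporter genes and, right of the line, the 4 hexose kinase genes, with 2 points per strain for *srb2∆*, *mig1∆* and the wild type. *HXT2* is the transporter gene with *srb2∆* above *mig1∆*, and *HXK2* is the kinase gene whose strains lie close together.

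Of 29 regulators of glucose sensing, 6 were called lower and 3 higher in *srb2∆*, the deleted *MIG1* being among the latter, and the median was -0.20. These counts were near the shares of all genes, which were 14.7% lower and 11.0% higher. *MTH1*, a corepressor with Rgt1p of transporter genes, stood at 8.51 and 8.23 RPKM in *srb2∆*, 58.8 and 53.0 in *mig1∆* and 10.2 and 8.25 in the wild type, a difference of -2.60 ± 0.13 (SE, adjusted p = 2.4e-06 from limma). *SNF3*, the sensor of low glucose, was 5.16-fold lower in *srb2∆* by the ratio of mean RPKM, at 2.98 and 3.16 RPKM against 16.5 and 15.2, while *RGT2*, the sensor of high glucose, was not called, with 8.53 and 8.69 RPKM against 7.14 and 6.19. *MIG2*, a repressor related to *MIG1*, stood at 40.5 and 45.4 RPKM in *srb2∆*, 89.1 and 94.7 in *mig1∆* and 39.5 and 35.0 in the wild type. *TUP1*, which encodes the corepressor used by Mig1p, was higher in *srb2∆*, at 363 and 362 RPKM against 150.0 and 140.4, a difference of 1.31 ± 0.09 (SE, adjusted p = 1.1e-05 from limma). Its partner *CYC8* was not called, with 67.9 and 67.7 RPKM against 57.4 and 52.6. *NRG1*, a repressor that also acts through Tup1p, was called higher at 24.1 and 21.9 RPKM against 12.7 and 8.29, and its paralog *NRG2* lower at 33.5 and 41.4 against 83.5 and 95.4. The call of *NRG1* was lost when *mig1∆* replicate 2 was left out, under equal sums and with a pseudocount of 5. For the Snf1p kinase itself, *SNF1* had -0.46 ± 0.09 and *SNF4*, its activating subunit, 0.02 ± 0.07 (SE, adjusted p = 0.00227 and 0.839 from limma), neither called. Of the beta subunits that place it in the cell, *SIP2* was called at 6.26 and 5.88 RPKM against 24.5 and 23.0, and *GAL83*, at 54.8 and 58.6 against 113 and 115, fell just short of the fold threshold.

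Hexose kinases, which act at the first step of sugar use, had the most negative median of the 25 carbon lists. Of 4 hexose kinase genes, 3 were called lower in *srb2∆*, beside 14.7% of all genes, and the median of the 4 was -4.58. *HXK2* encodes the main hexokinase of fermenting cells and was the exception, at 644 and 634 RPKM in *srb2∆* and 812 and 840 in *mig1∆*, a difference of -0.37 ± 0.06 (SE, adjusted p = 0.00146 from limma). *GLK1*, the glucokinase gene, stood at 79.7 and 77.8 RPKM in *srb2∆* against 1405 and 1364, which gave -4.12 ± 0.08 (SE, adjusted p = 5.9e-08 from limma). The wild type was near *mig1∆* here, at 1334 and 1237 RPKM, unlike for *HXK1*.

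Over all genes 14.7% were called lower in *srb2∆* and 11.0% higher. Among genes for other sugars, 6 of 13 for sucrose, maltose and isomaltose were lower in *srb2∆* and 1 was higher. The higher gene was *ZNF1*, a regulator of respiratory and maltose genes, at 13.0 and 14.3 RPKM in *srb2∆* and at 1.29 and 0.95 in *mig1∆*, with the wild type at 0.604 and 0.266. The lower ones besides *SUC2* and *MAL31* were expressed below 9 RPKM, and *MAL12* and the isomaltase genes *IMA3*, *IMA4* and *IMA5* lost the call with a pseudocount of 5. *IMA3* and *IMA4* have identical coding sequences and identical values and count as 1 measurement. Of 8 galactose genes 3 were lower and none higher (37.5% called, beside 25.7% of all genes). *PGM2*, the main phosphoglucomutase, which feeds galactose, glycogen and trehalose metabolism, stood at 3.04 and 3.23 RPKM in *srb2∆* and 187 and 143 in *mig1∆*, or -5.32 ± 0.16 (SE, adjusted p = 3.3e-07 from limma). Its paralog *PGM1* was not called, at 91.1 and 98.1 against 69.7 and 69.6 RPKM. *GAL4*, the activator of the galactose genes, stood at 2.72 and 3.62 RPKM against 20.6 and 16.2, and *GAL80*, its inhibitor, at 28.8 and 29.4 against 22.8 and 24.1. Of 8 reductase and dehydrogenase genes for polyols and other sugars 6 were lower, among them the aldo-keto reductase gene *GCY1*, at 8.77 and 8.60 RPKM against 241 and 219.

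Of 18 glycolysis genes, 5 were called lower in *srb2∆* and none higher, with a median of -0.52, and all 5 calls held under every alternative tried. The share called (27.8%) was near the 25.7% of all genes, of which 14.7% were lower and 11.0% higher. The list took 6.24% and 6.22% of the summed RPKM in *srb2∆* and 10.2% and 10.1% in *mig1∆*. The genes called included the less abundant members of families of isoenzymes. *TDH1*, a glyceraldehyde-3-phosphate dehydrogenase gene, stood at 90.5 and 81.7 RPKM in *srb2∆* against 2123 and 2211, a difference of -4.64 ± 0.10 (SE, adjusted p = 7.6e-08 from limma), whereas *TDH3*, the most abundant form, stood at 13340 and 12840 against 13950 and 14840. *PYK2*, a pyruvate kinase gene of low-flux growth, was at 0.911 and 1.55 RPKM against 44.2 and 41.9, and *CDC19*, the main pyruvate kinase, was not called at 3420 and 3465 against 5512 and 5661. *ENO1*, *GPM2* and *PFK26* completed the 5, with differences between -2.80 and -1.93. On the way to ethanol, 4 of 12 genes were lower and none higher (33.3% called). *PDC5*, a pyruvate decarboxylase gene, stood at 24.1 and 21.6 RPKM against 928 and 943, or -5.30 ± 0.11 (SE, adjusted p = 6.7e-08 from limma), beside 6078 and 5978 against 7899 and 8452 for *PDC1*. *ADH1*, the main alcohol dehydrogenase of fermentation, was not called at -0.40 ± 0.09.

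Further pairs of related genes, chosen after their values were seen, are given as a description. *COX5B* and *COX5A*, alternative subunits of cytochrome oxidase, stood at -3.90 and 0.34, *TKL2* and *TKL1*, transketolases, at -3.70 and 0.01, *GND2* and *GND1*, 6-phosphogluconate dehydrogenases, at -4.55 and -1.47, and *GSY1* and *GSY2*, glycogen synthases, at -5.48 and -2.23. In each of these pairs the gene named first had the lower wild-type level and the more negative difference. *ADH1* and *ADH2*, with 88.8% identity, were at -0.40 and -0.34, and *HXT5* and *HXT4* at -3.80 and -2.51, the gene with the lower wild-type level having the less negative difference.

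Most storage carbohydrate genes were lower in *srb2∆*. Of 12 glycogen genes 9 were called lower, and of 7 trehalose genes 5, beside 14.7% of all genes. The medians of these lists were -2.13 and -1.80, with no gene higher and all 14 calls kept under every alternative tried. *TSL1*, a regulatory subunit of trehalose synthase, stood at 2.10 and 2.47 RPKM in *srb2∆* and 189 and 150 in *mig1∆*, a difference of -5.69 ± 0.17 (SE, adjusted p = 3.3e-07 from limma). *TPS1*, its catalytic subunit, stood at 56.0 and 63.3 RPKM against 772 and 616. For glycogen, *GSY1* was at 0.718 and 0.657 RPKM in *srb2∆*, 88.8 and 62.2 in *mig1∆* and 10.7 and 10.4 in the wild type. *GPH1*, the phosphorylase that breaks glycogen down, fell as well as the branching enzyme *GLC3*, at 1.65 and 1.25 against 60.5 and 50.5 RPKM and at 3.70 and 3.95 against 71.8 and 50.5. Genes that make and genes that degrade glycogen were thus lower together. The glycogen initiator *GLG2* did not differ by the test, with -0.05 ± 0.08 (SE, adjusted p = 0.59 from limma).

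Glycerol genes followed, with 7 of 10 lower, beside 14.7% of all genes. *GPD1* and *GPD2*, the glycerol-3-phosphate dehydrogenases of glycerol formation, stood at 753 and 834 against 1780 and 1688 RPKM and at 114 and 115 against 267 and 267. For glycerol use, *GUT1*, the glycerol kinase, stood at 9.23 and 9.99 RPKM in *srb2∆*, 45.4 and 40.6 in *mig1∆* and 13.6 and 11.7 in the wild type. Here *mig1∆* stood apart from *srb2∆* and the wild type, but *sin3∆* was also above both, at 31.6 and 30.7 RPKM. In the pentose phosphate pathway 8 of 14 genes were lower and 1 higher, beside 14.7% and 11.0% of all genes. *ZWF1*, the glucose-6-phosphate dehydrogenase of its first step, was at 61.0 and 61.9 RPKM against 185 and 177, and *SOL4*, *TKL2* and *GND2* differed by values from -4.55 to -3.67. *RKI1*, ribose-5-phosphate isomerase, was higher at 109.9 and 106 against 44.5 and 56.3, a call lost when *mig1∆* replicate 1 was left out and under equal sums.

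In gluconeogenesis and the glyoxylate cycle, 7 of 15 genes were lower and 1 higher, beside 14.7% and 11.0% of all genes. Levels on this list were mostly low: *MLS1*, malate synthase, was at 5.24 and 5.21 RPKM against 13.4 and 12.1. *PCK1*, which encodes the first enzyme of gluconeogenesis proper, was at or below 1.84 RPKM in the 4 libraries and not called. The exception was *MAE1*, mitochondrial malic enzyme, at 122 and 118 RPKM in *srb2∆* and 22.0 and 23.2 in *mig1∆*, a difference of 2.36 ± 0.07 (SE, adjusted p = 3.7e-07 from limma). Among aldehyde dehydrogenases, *ALD3* was at 4.74 and 5.65 RPKM against 136 and 100.2 and the mitochondrial *ALD4* at 21.5 and 22.8 against 216 and 182. The cytosolic *ALD6*, the main acetate former on glucose, was not called at -0.50 ± 0.07 (SE, adjusted p = 0.00051 from limma). Of 8 genes for acetate and lactate 2 were lower, a share near that of all genes called (25.7%). They were the ammonium and acetate transporter gene *ATO2* and *CYB2*, lactate dehydrogenase of the intermembrane space, at 18.1 and 19.4 RPKM against 100.4 and 92.2. The pyruvate dehydrogenase subunits were not called. Of the mitochondrial pyruvate carrier, *MPC3*, the subunit of respiring cells, was at 41.5 and 46.1 RPKM in *srb2∆*, 379 and 402 in *mig1∆* and 90.1 and 103 in the wild type, and *MPC2*, that of fermenting cells, was at 530.3 and 481 against 378 and 569.

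In the citrate cycle 10 of 17 genes were lower in *srb2∆* and 1 was higher, with a median of -1.33. Over all genes 14.7% were lower and 11.0% higher. Succinate dehydrogenase, which is also complex II of the respiratory chain, was lower in all 4 subunits. *SDH1*, the flavoprotein, stood at 12.2 and 11.6 RPKM in *srb2∆*, 101 and 97.6 in *mig1∆* and 52.1 and 48.6 in the wild type, with a difference of -2.95 ± 0.07 (SE, adjusted p = 1.5e-07 from limma). *CIT1*, the citrate synthase of the cycle, stood at 21.2 and 19.5 against 150.1 and 138 RPKM, and *LSC2*, a succinyl-CoA ligase subunit, at 25.5 and 20.9 against 218 and 228. Of the genes that lead from citrate to 2-oxoglutarate, *IDH1*, *IDH2* and *ACO1* did not share the change. *IDH1* and *IDH2*, the NAD-linked isocitrate dehydrogenase, were at 0.16 ± 0.07 and 0.17 ± 0.06 and *ACO1* at 0.15 ± 0.09 (SE, adjusted p = 0.0671, 0.0477 and 0.174 from limma). The retrograde regulator genes *RTG1* and *RTG3* were not called, at -0.13 and -0.22, and their part in the levels of citrate cycle genes was not tested.

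**Figure D4:**
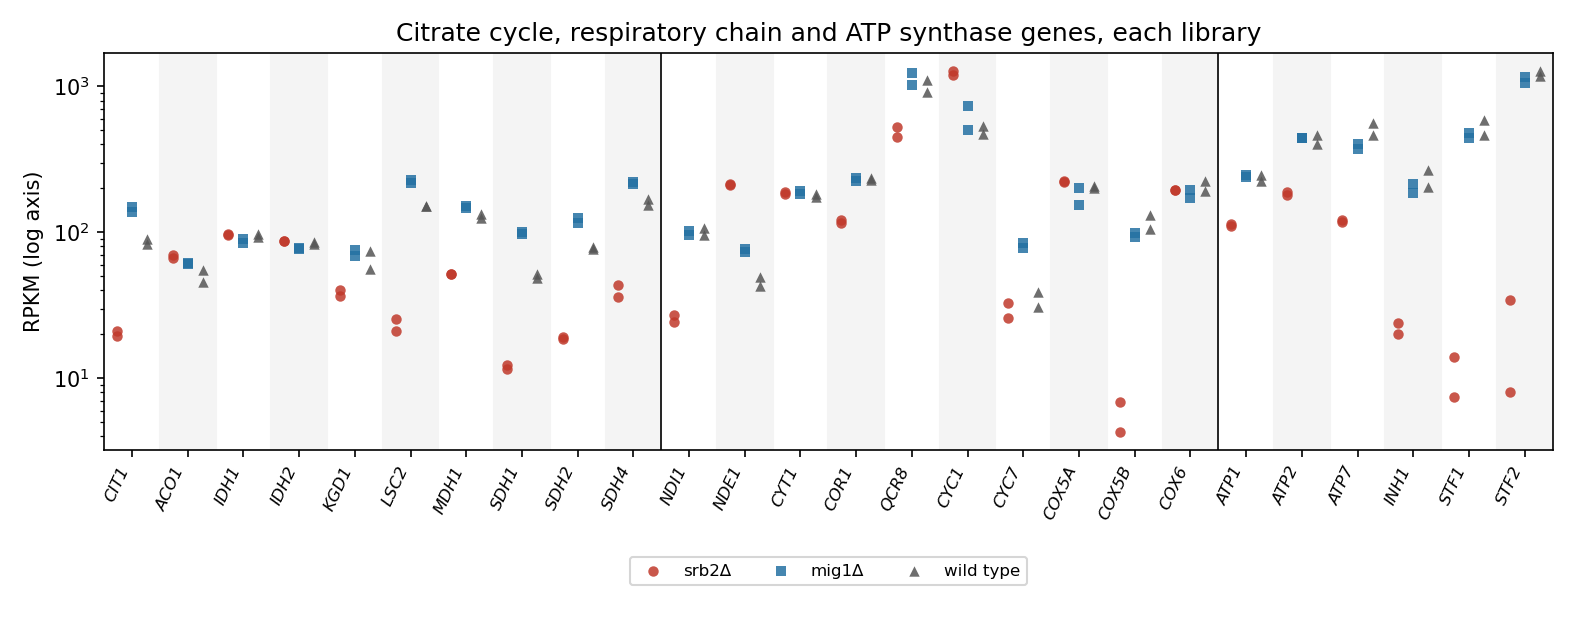
RPKM (log axis) of genes of the citrate cycle with succinate dehydrogenase (left), the respiratory chain (middle) and ATP synthase (right), 2 points per strain for *srb2∆*, *mig1∆* and the wild type. *SDH1*, *LSC2*, *COX5B* and *STF1* are among those with *srb2∆* far below both other strains, while *NDE1* and *CYC1* have *srb2∆* on top.

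The respiratory chain was split. Of 29 genes 12 were lower, 2 higher and 15 not called, with a median of -0.55, and the 4 genes of succinate dehydrogenase are among the 12. Over all genes 14.7% were lower and 11.0% higher. The core subunits of complexes III and IV mostly differed little: *CYT1*, cytochrome c1, had -0.01 ± 0.08, *RIP1*, the Rieske protein, 0.19 ± 0.08, and *COX6* 0.10 ± 0.10 (SE, adjusted p = 0.943, 0.0641 and 0.397 from limma). *QCR8* and *QCR9* of complex III were called, the call of the latter being lost in 5 alternatives, among them when *srb2∆* replicate 3 or *mig1∆* replicate 2 was left out. *COX5B*, the subunit used at low oxygen, stood at 4.31 and 6.87 RPKM in *srb2∆* against 99.2 and 92.3. Cytochrome c showed opposite changes. *CYC1*, its aerobic form, was higher in *srb2∆* at 1274 and 1206 RPKM against 500 and 732, a call lost when *srb2∆* replicate 2 or *mig1∆* replicate 1 was left out and under quantile normalization or equal sums, and *CYC7*, its hypoxic form, was lower at 26.0 and 32.6 against 84.4 and 77.7. The NADH dehydrogenases that stand in for complex I in yeast differed in direction too. *NDE1*, which faces the cytosol, was higher at 213 and 212 RPKM against 73.6 and 77.1, with 1.48 ± 0.08 (SE, adjusted p = 4.3e-06 from limma), while its less expressed paralog *NDE2* was lower at 0.514 and 0.344 against 2.76 and 3.11. *NDI1*, which faces the matrix, was lower at 27.1 and 24.2 RPKM against 102 and 95.1, with -1.90 ± 0.10 (SE, adjusted p = 3e-06 from limma). The very short *COX26* was listed at 0 in both *srb2∆* libraries and in 1 of the wild type, and *COX7* was listed at 0 in 1 wild-type library, values given here only as listed.

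ATP synthase genes were lower in 11 of 21 cases and higher in none, beside 14.7% and 11.0% of all genes. The catalytic subunits *ATP1* and *ATP2* stood at 111 and 114 against 247 and 241 RPKM and at 189 and 182 against 442 and 446, differences of -1.11 ± 0.07 and -1.26 ± 0.09 (SE, adjusted p = 6.4e-06 and 1.1e-05 from limma). The proteins that inhibit the enzyme, or stabilise the inhibitor, had the widest gaps. *INH1* stood at 20.0 and 24.0 RPKM against 187 and 214, *STF1* at 14.0 and 7.44 against 478 and 444, and *STF2* at 8.07 and 34.5 against 1158 and 1061. Both *srb2∆* libraries of each lay far below the *mig1∆* libraries, although those of *STF2* differed from each other.

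Among genes for proteins that build and serve the chain, the calls were lower in *srb2∆* as well. Of 22 cytochrome oxidase assembly genes 14 were lower and none higher, with a median of -1.16. *COX20*, a chaperone of the subunit Cox2p, stood at 32.5 and 30.4 RPKM against 210 and 201, and *SCO1*, which delivers copper, at 19.6 and 21.3 against 67.9 and 66.0. Of 10 ubiquinone genes 3 were called (30.0%), all lower and led by the monooxygenase gene *COQ6* at 31.5 and 33.4 against 162 and 168 RPKM. Of 76 mitochondrial ribosomal protein genes 22 were lower (28.9%) and none higher. Their median was -0.88 and their range from -1.78 to 0.27, so that most lay below the fold threshold. Over all genes 14.7% were lower and 11.0% higher, or 25.7% called. The shares called in either direction among ubiquinone and mitochondrial ribosomal protein genes were thus near that of all genes. All of these calls were lower, however, and the shares called lower were above the 14.7% of all genes. In cytochrome oxidase assembly 8 of the 14 calls, and among mitochondrial ribosomal proteins 16 of the 22, held under every alternative tried. Of 20 genes of peroxisomal fatty acid oxidation 8 were lower, among them *POX1*, the acyl-CoA oxidase of its first step, at 0.739 and 0.615 RPKM against 14.3 and 12.6.

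Of 19 regulators of nonfermentable carbon use, 5 were lower and 1 higher in *srb2∆*. The share called was 31.6%, beside 25.7% of all genes (14.7% lower and 11.0% higher). Of these 6 calls 3 held under every alternative tried. *ADR1*, an activator of genes for ethanol, glycerol and fatty acid use, stood at 4.38 and 4.34 RPKM in *srb2∆*, 115 and 105 in *mig1∆* and 65.9 and 48.1 in the wild type, a difference of -4.37 ± 0.14 (SE, adjusted p = 4.3e-07 from limma). *HAP4*, the activating subunit of the Hap complex, stood at 51.8 and 53.5 RPKM against 122 and 117, with the wild type at 77.0 and 69.2, and its partners *HAP2*, *HAP3* and *HAP5* were not called, at -0.46, -0.67 and -0.82. *USV1*, a zinc finger regulator induced on nonfermentable carbon, was at 2.99 and 2.43 RPKM against 40.2 and 28.0. *CAT8* and *GSM1* were lower at under 9 RPKM. *ROX1*, a repressor of hypoxic genes such as *COX5B*, was higher in *srb2∆* at 124 and 129 RPKM against 62.1 and 58.6, a call lost under equal sums.

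**Figure D5:**
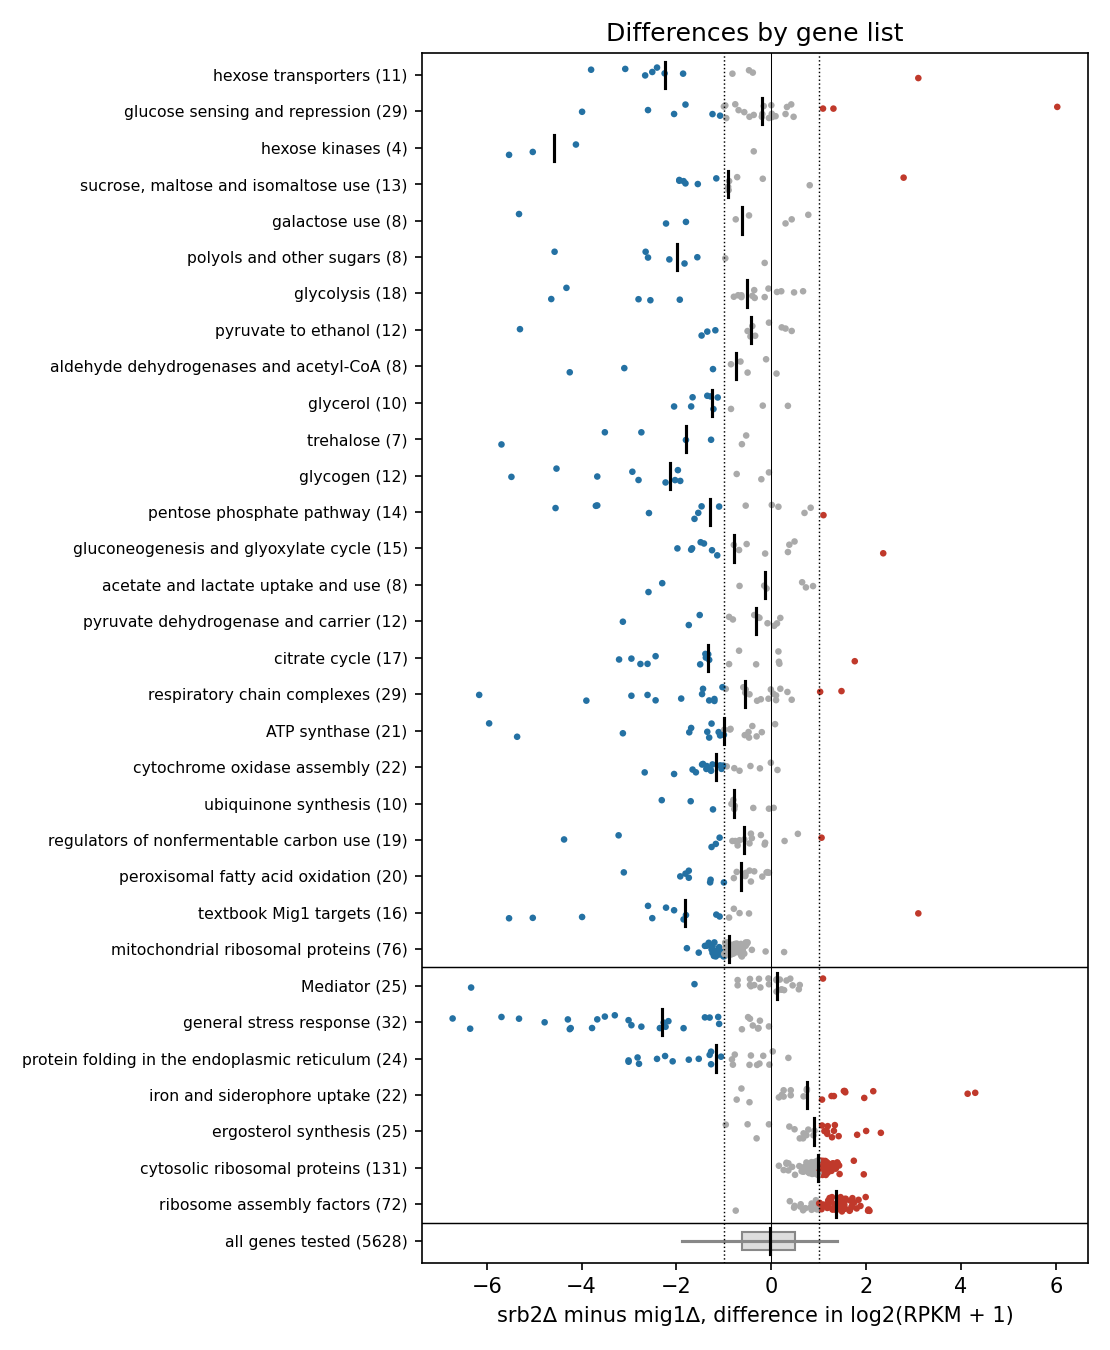
Difference in log2(RPKM + 1) between *srb2∆* and *mig1∆* for each tested gene of the 25 carbon lists (top) and of 7 further lists, 1 point per gene, with calls coloured (blue lower in *srb2∆*, red higher, grey not called), the median as a black bar and the number of genes in brackets. The bottom box spans the middle 50% of all 5628 genes, from -0.62 to 0.51, and its line the range from the 5th to the 95th percentile, from -1.88 to 1.38, and most carbon lists have their median left of the box's centre.

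Of 32 general stress response genes, several of them also on the trehalose and glycogen lists, 24 were lower in *srb2∆* and none higher, with a median of -2.31. Over all genes 14.7% were lower and 11.0% higher. *HSP12*, a heat shock protein that binds membranes, was found at 22.7 and 24.2 RPKM in *srb2∆*, 1822 and 2160 in *mig1∆* and 5590 and 6731 in the wild type, and *MSN4*, an activator of the stress response, stood at 13.0 and 13.7 against 143 and 138. Its paralog *MSN2* was not called, at 50.2 in both against 62.1 and 60.0 RPKM. Of 131 cytosolic ribosomal protein genes 62 were higher and none lower, and of 72 ribosome assembly genes 56 were higher, with medians of 0.99 and 1.37. Only 9 of the 62 ribosomal protein calls held under every alternative tried, most being lost under quantile normalization or equal sums, while 48 of the 56 assembly calls held. The part of stress and ribosome genes, or of growth rate, in the carbon genes' differences was not tested. Of 25 Mediator genes 3 were called, a smaller share than the 25.7% of all genes: the deleted *SRB2* and *MED4* were lower and *SRB8* was higher. *MED4*, of the middle module, stood at 65.3 and 63.1 RPKM in *srb2∆* and 205 and 195 in *mig1∆*. *SRB8*, of the kinase module, stood at 11.6 and 10.3 against 5.05 and 4.18, a call lost when *mig1∆* replicate 2 was left out, under equal sums and with a pseudocount of 5.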

How the data were processed

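RNA-seq libraries of ScY01a, *srb2∆*, *mig1∆* and *sin3∆* were used, 2 of each. Per the submitters' processing notes, the authors aligned reads to R64 with Bowtie2 and quantified them with RSEM. The deposited values are RPKM according to the paper, while their table is named for TMM scaling. Library sums had a geometric mean of 999854, so the exact scale is uncertain, and the values were used as listed. Columns of the authors' own fold changes and p-values against ScY01a were left aside. Without read counts no counting error can be given. Whether the libraries of a strain came from separate cultures is not given in the sources used here.

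Expression was log-transformed as log2(RPKM + 1) after removal of genes that did not reach 1 RPKM in 2 libraries. All 4 strains entered a single limma model (limma 3.58.1, R 4.3.3, trended prior, 4 residual degrees of freedom), from which the contrast of *srb2∆* and *mig1∆* was taken. Adjustment for multiple testing followed Benjamini and Hochberg and covered all 5628 genes. Calls required an adjusted p no higher than 0.05 and a 2-fold difference. The procedure was tested on simulated data. Fold differences on this scale understate those of low genes.

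The comparison, the 25 carbon lists and 9 context lists were chosen with earlier results of these data known. Any member of a carbon list could be named. Values of every library were due for *SRB2*, *MIG1*, the 6 called members of each carbon list and 4 of each context list with the largest differences, members of at least 10 RPKM said not to be called, and the 8 largest rises and falls among called genes that reached 10 RPKM and did not overlap between the strains. Chosen after their values were seen were the gene pairs, the printed stretches, the mating-type genes outside that rule, *ATP1*, *ATP2*, *CYC1*, *CYC7*, *GPD1*, *HXT1*, *HXT9*, *MIG2*, *MLS1*, *NDE1*, *NRG1*, *NRG2*, *RKI1*, *SUC2*, *NDE2*, *MSN2*, *MSN4*, *AFT1*, *AFT2*, *HMG2*, *IRE1* and the uncalled genes under 10 RPKM.

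The values of 1 gene are not reported here. Windows before genes were read from the R64 genome, and coding sequences were aligned globally with Biopython 1.88. Other software was Python 3.11.15 with matplotlib 3.10.9, scipy 1.17.1, numpy 2.4.6 and pandas 2.3.3. Alternatives were 4 other scalings, pseudocounts of 0.1 and 5, no filter, a filter at 10 RPKM, no trend, the 4 libraries alone, no fold threshold, a test against 1.5-fold, leaving out each library, and the part of the window before the start codon. Leaving out genes under 300 bases was added after seeing the data.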

Additional observations from a re-analysis of the deposited data

How the results depend on the processing

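Of 362 named or listed genes that were called, 250 kept the call under every alternative, 112 lost it under at least 1, and none changed direction. Among the 176 carbon genes called, 137 kept it. An alternative in which a gene was not tested did not count against its call. The filter at 10 RPKM left 361 carbon genes tested, 11 higher and 148 lower. With no fold threshold 3895 genes were called, 1885 higher and 2010 lower, and 334 carbon genes, 35 higher and 299 lower. With equal sums 397 genes were higher, or 26.6% of calls against 42.8%, with 7 carbon genes higher. Leaving out each library in turn gave from 1386 to 1527 calls, and from 173 to 180 among carbon genes. Leaving out genes under 300 bases gave 610 higher and 788 lower. In the part of the window before the start codon, the Mig1p core was in 22.51% of all genes, AGGGG in 34.51% and CCAAT in 62.77%, 59.5% of genes higher and 61.67% of genes lower in *srb2∆*. The cause of these shifts was not tested, beyond the shorter window and the missing fold rule. The median of the Mediator list changed sign under equal sums, from 0.11 to -0.09. No paired analysis was possible because *srb2∆* and *mig1∆* share only 1 replicate number. The unknown depth limits statements on genes of a few RPKM.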

Other observations

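Outside carbon use, the largest rises in *srb2∆* over *mig1∆* were in genes listed at low levels in *mig1∆* and the wild type. Reads were aligned to R64, and a difference in gene sequence or copy number between the strains was not tested. *UIP3*, a nuclear envelope protein of the DUP240 family, stood at 179 and 168 RPKM in *srb2∆* and was listed at 0 in both *mig1∆* libraries. *BSC1* stood at 173 and 174 RPKM against 1.36 and 1.20, and *PRM7*, a pheromone-regulated gene, at 183 and 179 against 2.45 and 2.62. In *sin3∆* all 3 were high as well, at 154 and 137, 191 and 204, and 216 and 225 RPKM. *FLO11*, the flocculin of invasive growth and biofilms, stood at 65.8 and 71.4 RPKM in *srb2∆* against 1.51 and 1.10 in *mig1∆*, with only 4.54 and 3.97 in *sin3∆*, a difference of 4.92 ± 0.14 (SE, adjusted p = 3.2e-07 from limma). *YOL159C-A* stood at 32.2 and 36.3 RPKM in *srb2∆* and was listed at 0 in the other 6 libraries. *ETS1-1* and *ETS1-2*, spacers of the ribosomal RNA precursor with identical values, stood at 176 and 102 RPKM against 1.12 and 7.54. Besides *HSP12*, *SRB2* and the short *COX26* and *DDR2*, the largest falls were in *EGO4* at 3.50 and 1.24 RPKM against 832 and 679.8, *FMP16* at 0 in both against 145 and 119, *IGD1*, an inhibitor of glycogen debranching, at 0.568 and 0.803 against 189 and 161, and the thiamine synthesis gene *THI11*, which has near-identical copies, at 2.56 and 4.80 against 289 and 314. *DDR2* was at 0 in both *srb2∆* libraries, at 47.4 and 228 RPKM in *mig1∆* and at 0 in 1 wild-type library, and lost the call when any of the 4 libraries was left out.

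Membrane and metal genes differed in groups. Of 25 ergosterol genes 12 were higher in *srb2∆* and none lower, with a median of 0.91, beside 11.0% higher of all genes. *HMG1*, the HMG-CoA reductase that limits the pathway, stood at 123 and 127 RPKM against 24.6 and 24.3, while its paralog *HMG2* stood at 13.8 and 14.0 against 30.3 and 26.0 and was not called. *ERG3*, a sterol desaturase, stood at 289.5 and 303 against 68.9 and 77.4. Of 22 iron and siderophore genes 10 were higher and none lower, with a median of 0.75. *FRE4*, a ferric reductase gene, stood at 129 and 128 RPKM against 6.21 and 6.48, and *ENB1*, an enterobactin transporter gene, at 19.3 and 18.1 with both *mig1∆* and both wild-type libraries listed at 0. The regulators *AFT1* and *AFT2* were not called, at 0.22 and 0.41. Of 24 genes whose products fold proteins of the secretory pathway 13 were lower and none higher, beside 14.7% and 11.0% of all genes. The median of these 24 was -1.16. *KAR2*, the main chaperone of the endoplasmic reticulum, stood at 321 and 313 RPKM against 2574 and 2556, *MPD1*, a protein disulfide isomerase, at 29.1 and 30.6 against 250.0 and 244, and the sensor gene *IRE1* was not called, at 13.9 in both against 15.3 and 13.3. Of 5 a-cell genes tested 1 was called (20.0%, beside 25.7% of all genes), *ASG7*, which was lower at 3.37 and 3.39 RPKM against 12.3 and 10.6.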
